A study of Mus musculus with 18 samples.

Results

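Ventricles exposed to both deletion of serum response factor (SRF) and phenylephrine (PE) were compared with ventricles exposed to neither. The comparison took the 3 arrays titled as SRFHKO +PE hearts at day 25 and the 3 titled as control hearts at day 25 without PE, 6 of the 18 arrays of the series. Its total change holds the effect of deletion, the effect of PE and whatever the pair adds, so the hearts with a single insult, 3 SRFHKO and 3 control +PE hearts of day 25, are set beside it.

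Each array read the ventricular RNA of 1 heart from a male mouse of 10 weeks, of a strain given as CR7BL6, and the titles call the replicates biological. SRFHKO +PE mice had received tamoxifen (0.7 mg, 3 days), which starts the deletion, and then PE through an Alzet osmotic minipump, implanted on day 10 and kept to day 25, at a dose of 80 mg/kg/day. SRFHKO mice had tamoxifen and no PE, and control +PE mice had tamoxifen and PE without the deletion. Control mice were SRF-flex2neo littermates, and they too had received tamoxifen, so tamoxifen is shared by all groups. The sources used here do not give the Cre driver, its cell type or whether untreated mice carried a pump. An effect of PE and an effect of carrying a pump therefore cannot be told apart.

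SRF is a transcription factor that binds CArG boxes in the promoters of actin, sarcomere and growth-response genes, and adult heart muscle depends on it for the expression of contractile proteins. PE activates alpha-1 adrenergic receptors, which signal through Gq, calcium and mitogen-activated protein kinases, and its infusion raises blood pressure and makes the heart grow. Growing or failing ventricles are known to take up fetal genes such as natriuretic peptides and beta-myosin and to lower genes of fatty acid oxidation.

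Promoters of 4 named genes are printed because the gene lists of SRF targets and of heat shock proteins are described further on. Each is the 250 bases upstream of a RefSeq start site in GRCm38.p6, read 5' to 3' on the gene's strand. Capitals mark the CArG box, the DNA element that SRF binds, in Acta1 (chr8:123894776-123895025, minus strand) and Fhl1 (chrX:56779433-56779682, plus strand). They mark a heat shock element, searched as GAANNTTC or TTCNNGAA, in Hspa1b (chr17:34959239-34959488, minus strand) and Hsph1 (chr5:149636337-149636586, minus strand).
Acta1: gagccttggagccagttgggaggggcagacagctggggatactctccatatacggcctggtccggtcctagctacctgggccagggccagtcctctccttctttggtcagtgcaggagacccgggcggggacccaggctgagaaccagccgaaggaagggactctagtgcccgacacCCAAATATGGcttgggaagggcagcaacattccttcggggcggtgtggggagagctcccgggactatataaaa
Fhl1: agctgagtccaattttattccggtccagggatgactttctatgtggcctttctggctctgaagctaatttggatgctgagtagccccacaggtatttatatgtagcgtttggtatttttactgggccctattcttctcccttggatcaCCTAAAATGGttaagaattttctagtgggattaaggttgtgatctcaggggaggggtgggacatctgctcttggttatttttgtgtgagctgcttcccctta
Hspa1b: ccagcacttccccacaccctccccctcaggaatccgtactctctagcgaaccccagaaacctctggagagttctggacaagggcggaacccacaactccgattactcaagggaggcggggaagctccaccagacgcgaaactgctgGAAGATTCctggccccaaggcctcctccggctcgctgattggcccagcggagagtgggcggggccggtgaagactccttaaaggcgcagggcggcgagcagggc
Hsph1: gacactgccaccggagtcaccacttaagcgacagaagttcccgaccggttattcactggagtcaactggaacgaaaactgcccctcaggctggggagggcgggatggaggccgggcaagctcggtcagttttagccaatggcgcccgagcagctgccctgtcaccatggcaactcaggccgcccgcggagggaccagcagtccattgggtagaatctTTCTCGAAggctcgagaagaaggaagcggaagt
Both motifs read the same on either strand, so a search of 1 strand covers both. A CArG box stood in 482 of 32851 promoters of this length (1.47%). The other counts are by gene, where any promoter of the gene may hold the motif. By gene it stood in 145 of 10155 genes tested with a promoter (1.43%) and in 8 of 28 SRF-dependent genes with a promoter (28.6%). Among genes tested it stood in 7 of 477 genes that were higher in SRFHKO +PE hearts (1.47%) and in 13 of 508 that were lower (2.56%). A heat shock element stood in 4218 of 32851 promoters (12.8%). By gene it stood in 1269 of 10155 genes tested with a promoter (12.5%) and in 10 of 17 heat shock genes with a promoter (58.8%). It stood in 65 of 477 higher genes (13.6%) and 68 of 508 lower genes (13.4%). These matches describe letters in a window and are not shown to be bound sites.

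Before scaling, the arrays of the 2 groups differed in brightness, with 2% trimmed mean intensities of 79.9 ± 4.91 in SRFHKO +PE and 57.3 ± 11 in control arrays (SD, n = 3 each). The groups did not overlap, and the exact permutation test gave two-sided p = 0.1, the smallest that 20 regroupings allow. All arrays were scaled to 1 trimmed mean, and the part of brightness in the results was not tested beyond a fit with brightness as a covariate, given with the counts. RNA integrity was read from the 3'/5' ratio of Gapdh, which was 0.824 to 0.863 in SRFHKO +PE and 0.868 to 0.945 in control arrays. The Actb ratio overlapped, at 1.87 to 2.31 and 2.00 to 2.03. The tissue carried its label: all 9 cardiomyocyte markers were measured, from the Z-disc protein gene Actn2 to the ryanodine receptor gene Ryr2. Their summed scaled signal was 68840 to 73710 in SRFHKO +PE and 89260 to 98090 in control hearts, and 5 of the 9 fell (55.6%, against 4.98% of all genes). These markers are bright, with mean signals of 3730 to 11500 in SRFHKO +PE hearts. In the brightest 10% of genes tested 239 of 1262 fell and 101 rose. Under quantile normalization the call of Myh6 ended and that of Myl3 held. Of 8 fibroblast markers 1 (Postn) rose (12.5%, against 4.69% of all genes), with sums of 8158 to 12130 and 5757 to 8811. The 10 macrophage, 8 endothelial, 7 smooth muscle and 5 measured atrial markers held 0 calls, where 9.67% of all genes were called. The smooth muscle and pericyte sums nevertheless lay apart, at 6954 to 8560 in SRFHKO +PE and 8863 to 9762 in control hearts. So did the sums of 3 adipocyte markers, at 5711 to 6049 and 6959 to 7175, and of 3 lung epithelium markers, at 23.66 to 42.61 and 49.14 to 104.3. The lung markers were dim, with mean signals of 10.1 to 11.8 in SRFHKO +PE hearts, near the filter limit of 9.94. In the dimmest 10% of genes tested the median log2 difference was -0.27, and 0 under quantile normalization. Of the 2 measured B and plasma cell markers Igha fell, with sums of 65.37 to 234.6 in SRFHKO +PE and 410.5 to 2062 in control hearts, while Cd79a, Cd79b and Ms4a1 lay below the filter limit. Skeletal muscle markers summed to 1057 to 1849 and 5518 to 6219, and nearly all of that signal was Ckm, which is also a cardiac gene. Mean signals in SRFHKO +PE and control hearts were 1500 and 5750 for Ckm, 13.2 and 31.9 for Mylpf and 19.2 and 17.7 for Tnni2. Myh1, Myh2, Myh4, Tnnt3 and Actn3 lay below the limit. The part of cell composition in the results was not tested. In bulk ventricle, fewer cells of a type and less RNA per cell cannot be told apart.

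Srf itself did not pass the test. Its brighter probe set had scaled signals of 162, 161 and 179 in SRFHKO +PE and 200, 163 and 169 in control hearts. The groups overlapped, and the difference was -0.08 ± 0.19 on the log2 scale (limma adjusted p = 0.847), while the other probe set differed by 0.07 ± 0.19. The position of either probe set with respect to the deletion is not known here, and neither can serve as a check of genotype.

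Ventricles under both insults differed from untreated control ventricles in 1220 of 12616 genes (9.67%), 592 higher (4.69%) and 628 lower (4.98%). These shares of higher and lower genes are the background for the gene list counts below. Scaled signals are given on a linear scale, and differences as log2(scaled signal + 2) with standard errors and limma p values adjusted by Benjamini-Hochberg over all genes, past the threshold under 0.05. At least 2-fold changes numbered 133 higher (1.05%) and 131 lower (1.04%). The 3 and 3 arrays did not overlap in 3531 genes (28%) and in 1182 of the 1220. With array brightness as a covariate 159 genes passed, and 576 passed without SRFHKO +PE replicate 2, 680 without control replicate 3 and 809 in a fit of the 6 arrays alone. Among the 118 genes named here that passed, 76 lost the call with the brightness covariate, and 39 passed under all 17 alternatives. Quantile normalization gave 1099 genes, 986 of them among the 1220, with 563 higher and 536 lower. The median difference over all genes was -0.05.

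The 15 largest rises and 15 largest falls were taken from genes past the threshold whose 2 groups did not overlap. Their brighter group also had to lie above the median level of all genes tested. Atf3, at 2.51 ± 0.75, was left out because its hearts overlapped. Among the 15 largest rises, Nmrk2, the muscle kinase that phosphorylates nicotinamide riboside on the way to NAD, had the smallest adjusted p. It had scaled signals of 1616, 1770 and 1597 in SRFHKO +PE hearts, against 60.9, 41.8 and 66.1 in control hearts. The rise was 29.0-fold (4.86 ± 0.36, adjusted p = 7.86e-07), far beyond the spread within either group. Hspa1b, an inducible heat shock protein 70, had the highest difference and the widest spread, with 96.5, 7387 and 4350 in SRFHKO +PE and 37.7, 43.3 and 57.3 in control hearts. Replicate 1 of the SRFHKO +PE hearts thus stood close to the control hearts and the other two far above (4.95 ± 1.02, adjusted p = 0.00506). The difference was 6.90 without that heart and 3.79 without replicate 2.

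Myl1, the fast skeletal essential myosin light chain, had 2953, 1230 and 957 in SRFHKO +PE and 215, 251 and 114 in control hearts (3.03 ± 0.44, adjusted p = 0.000366). Sprr1a, a small proline-rich stress protein known to protect heart muscle cells, had 425, 474 and 152 in SRFHKO +PE and 26.2, 25.0 and 45.6 in control hearts. Its rise was 9.53-fold (3.25 ± 0.36, adjusted p = 3.68e-05). Gas2l3, a protein that links actin and microtubules, had 85.7, 258 and 123 in SRFHKO +PE and 31.9, 24.3 and 20.2 in control hearts (2.39 ± 0.35, adjusted p = 0.000413). In all of these the lowest SRFHKO +PE heart lay above the highest control heart, as the rule for the largest rises required.

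The estrogen receptor gene Esr1 had 144, 91.0 and 120 in SRFHKO +PE and 8.48, 2.07 and 20.7 in control hearts. Because of the 2 control values under 9.94, the limit of the filter on dim probe sets, the rise is given as at least 8.01-fold (adjusted p = 0.00631). Its other probe set differed by -0.31 ± 0.35 (adjusted p = 0.645), so only 1 of the 2 showed the change. The other rises of the largest 15, outside the groups described below, were the RNA-binding protein gene Rbm45 (2.50 ± 0.43), the deubiquitinase gene Otud1 (2.28 ± 0.53), Pwwp3b (2.24 ± 0.26), Lrp11 (2.04 ± 0.26) and Spsb4 (2.02 ± 0.33). Without SRFHKO +PE replicate 2 the call of Otud1 was lost.

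**Figure D1:**
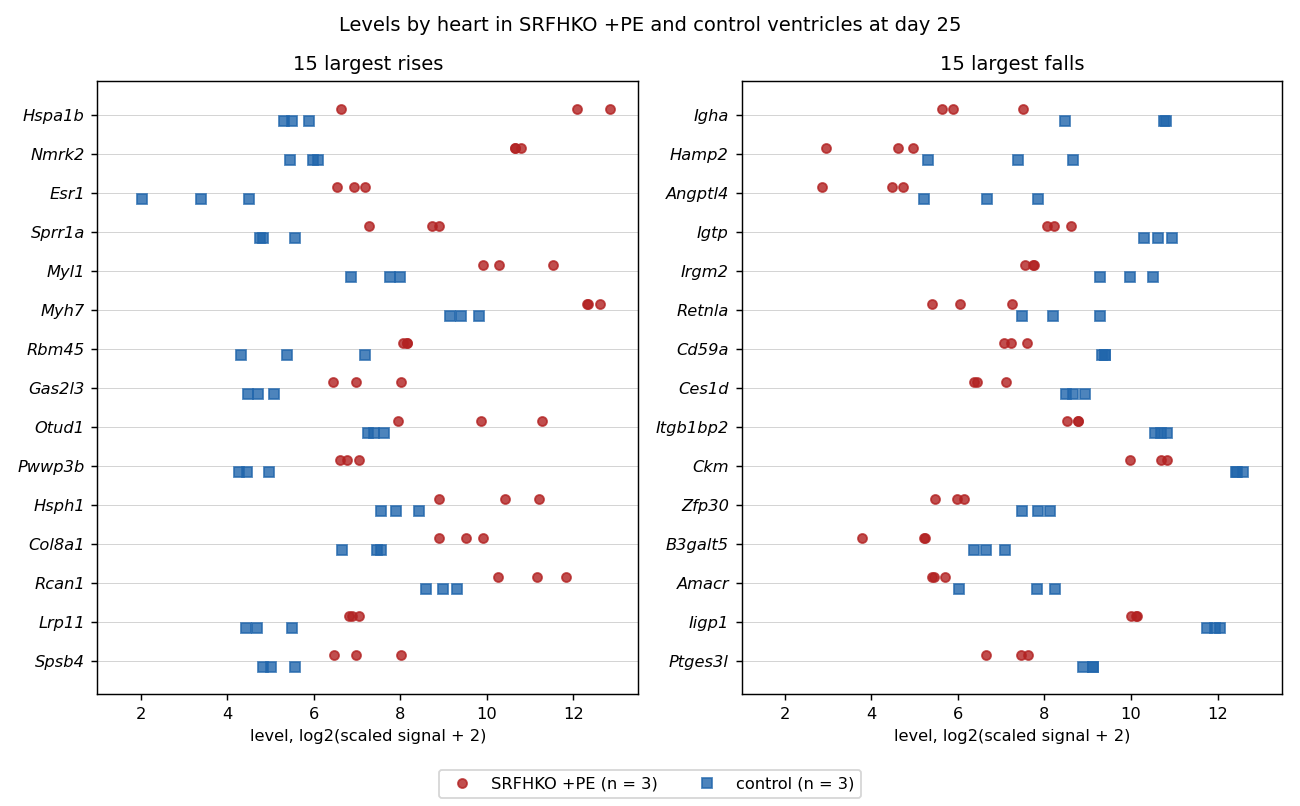
Levels of the 15 largest rises and 15 largest falls in each SRFHKO +PE heart (red circles, n = 3) and each control heart (blue squares, n = 3), as log2(scaled signal + 2). The groups lie apart in each row because genes with overlapping groups were left out. Hspa1b, with 96.5 in 1 SRFHKO +PE heart and 7387 in another, is spread widest.

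Among the falls, Itgb1bp2, which encodes melusin, a muscle chaperone that binds integrin and is known to protect the heart under pressure load, was 4.01-fold lower. It had 435, 438 and 365 in SRFHKO +PE and 1496, 1828 and 1662 in control hearts (-2.0 ± 0.21, adjusted p = 2.67e-05). Ckm, muscle creatine kinase, had 1007, 1665 and 1825 in SRFHKO +PE and 6175, 5470 and 5615 in control hearts. Its fall was 3.95-fold (-1.98 ± 0.22, adjusted p = 3.68e-05). Separate ranges in the 2 groups were required of the largest falls, and neither call was lost under any of the 17 alternatives.

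Ces1d, a carboxylesterase that hydrolyses stored fat, had 80.5, 84.2 and 138 in SRFHKO +PE and 358, 404 and 488 in control hearts (-2.06 ± 0.22, adjusted p = 2.67e-05). Cd59a, which protects cells from complement, had 192, 132 and 148 in SRFHKO +PE and 647, 671 and 672 in control hearts (-2.08 ± 0.36, adjusted p = 0.00165). The 3 control arrays of Cd59a lay above all other arrays of the series, so a fall and a high control group cannot be told apart there. Ptges3l fell by 1.81 ± 0.24, Zfp30 by 1.96 ± 0.44 and B3galt5, a galactosyltransferase, by 1.96 ± 0.36. The second probe sets differed by -0.70 ± 0.39 for Zfp30 (adjusted p = 0.312) and by -1.08 ± 0.63 for B3galt5 (0.330). The adipocyte marker sums given above were lower beside Ces1d, and their part was not tested.

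Several large falls lost their calls when any 1 of several hearts was left out. Igha, the immunoglobulin A heavy chain, had 180, 57.4 and 47.6 in SRFHKO +PE and 1789, 1728 and 355 in control hearts (-3.67 ± 0.88, adjusted p = 0.0131). Its call was lost without control replicate 1 or 2, or SRFHKO +PE replicate 2 or 3. Retnla, a resistin-like protein of alternatively activated macrophages and fat, had 149, 39.8 and 64.8 in SRFHKO +PE and 176, 291 and 621 in control hearts (-2.09 ± 0.59, adjusted p = 0.0309). Angptl4, an inhibitor of lipoprotein lipase, was at least 4.99-fold lower (adjusted p = 0.0454), with 5.27, 20.3 and 24.3 in SRFHKO +PE against 35, 229 and 99.7 in control hearts. Hamp2, of the hepcidin family, was at least 6.67-fold lower (adjusted p = 0.0311), and Amacr, a racemase of branched fatty acids, fell by 1.84 ± 0.55 (adjusted p = 0.0414). Leaving out control replicate 2 or SRFHKO +PE replicate 2 ended the calls of Retnla, Angptl4, Hamp2 and Amacr. Control replicate 3 or SRFHKO +PE replicate 3 did so for Retnla and Angptl4, control replicate 1 for Hamp2 and Amacr, SRFHKO +PE replicate 1 for Angptl4 and Amacr, and SRFHKO +PE replicate 3 for Amacr. With 1 array left out, Igha differed by -4.44 to -3.27, Retnla by -2.59 to -1.61 and Angptl4 by -3.24 to -1.92. Hamp2 then differed by -3.86 to -2.18 and Amacr by -2.51 to -1.41.

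Fetal and load-responsive cardiac genes were the list with the highest median difference, 0.53 over 17 measured members, with 8 higher (47.1%) and 2 lower (11.8%). Over all genes tested the median was -0.05. The rises numbered 4 with brightness as a covariate, without control replicate 1 or 2, and without SRFHKO +PE replicate 2 or 3. Myh7, beta-myosin heavy chain, had 5092, 6312 and 5144 in SRFHKO +PE and 561, 678 and 900 in control hearts, a 7.82-fold rise (2.97 ± 0.38, adjusted p = 0.000131). The 3 control hearts lay below every other array of the series, the 2 control hearts of day 8 included, which had 3785 and 3930. A rise under both insults and a low value in this control group therefore cannot be told apart. Nppb, which encodes B-type natriuretic peptide, a hormone of stretched ventricle, doubled in level without overlap, at 5890, 6644 and 5942 in SRFHKO +PE and 2872, 2849 and 3355 in control hearts. That change of 1.03 ± 0.28 (adjusted p = 0.0270) missed the threshold when any 1 of the 6 arrays was left out. Nppa, atrial natriuretic peptide, had 9960, 9232 and 7776 in SRFHKO +PE and 8164, 7605 and 10914 in control hearts, which overlap (0.03 ± 0.16, adjusted p = 0.944).

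Stress-responsive scaffold genes of the same list rose. Rcan1, a calcineurin regulator that is itself induced by calcineurin, had 1225, 3622 and 2290 in SRFHKO +PE and 504, 632 and 386 in control hearts (2.12 ± 0.27, adjusted p = 0.00014). Its call held under all alternatives. Xirp1, an actin-binding repeat protein of the intercalated disc, had 426, 1980 and 888 in SRFHKO +PE and 376, 412 and 411 in control hearts (1.18 ± 0.33, adjusted p = 0.0290). SRFHKO +PE replicate 1 lay just above the control hearts, and the call was lost without replicate 2 or 3 of SRFHKO +PE or any 1 control heart. Ankrd1, a titin-bound ankyrin repeat protein, had 8782, 8492 and 8645 in SRFHKO +PE and 5026, 4784 and 7468 in control hearts (0.61 ± 0.19, adjusted p = 0.0436), and this call was lost without any 1 array other than control replicate 3. Fhl1, a LIM protein of the sarcomere, rose by 0.69 ± 0.16 (adjusted p = 0.00986), except without control replicate 1; its other probe set differed by -0.57 ± 0.40. Ankrd23, a relative of Ankrd1, was the last of the 8.

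SRF-dependent actin and cytoskeletal genes did not move as a group: 3 of 31 measured members rose and 3 fell (9.68% each), with a median of -0.10. Acta1, skeletal alpha-actin, whose CArG box is printed above, had 759, 549 and 360 in SRFHKO +PE and 1276, 895 and 1497 in control hearts. The groups lay apart (-1.17 ± 0.36), but its adjusted p of 0.0462 rose past the threshold under 10 of 17 alternatives, among them quantile normalization and the removal of control replicate 1 or 3 or of SRFHKO +PE replicate 2 or 3. Actc1, cardiac alpha-actin, had 8059, 8320 and 8070 in SRFHKO +PE and 11774, 10918 and 11875 in control hearts (-0.50 ± 0.11, adjusted p = 0.00690). Tpm1, alpha-tropomyosin, fell by 0.48 ± 0.11 (adjusted p = 0.00959). Both calls ended under quantile normalization and with brightness as a covariate, where the differences reached -0.12 and -0.10 at the least, and that of Tpm1 also without SRFHKO +PE replicate 2. Acta2, smooth muscle actin, differed by -0.57 ± 0.20 (adjusted p = 0.0843). It is itself a smooth muscle marker, with mean scaled signals of 1790 in SRFHKO +PE and 2690 in control hearts. The lower smooth muscle marker sums given above include Acta2 and are not independent of it. Falls in the SRF-dependent list numbered 6 without control replicate 2 and 1 without SRFHKO +PE replicate 2. Among the rises, Synm, an intermediate filament protein, had 165, 109 and 109 in SRFHKO +PE and 61.1, 77.6 and 78.5 in control hearts (0.78 ± 0.18, adjusted p = 0.00884), and Itga1 was the third beside Fhl1.

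Sarcomere genes split, with 10 of 29 lower (34.5%) and 3 higher (10.3%) at a median of -0.09. Myl3, the ventricular essential light chain, had 5697, 6721 and 7595 in SRFHKO +PE and 13246, 11799 and 14060 in control hearts, close to a halving of its level (-0.97 ± 0.11, adjusted p = 6.31e-05). Tnnc1, cardiac troponin C, had 4640, 5249 and 5643 in SRFHKO +PE and 9255, 7980 and 9000 in control hearts (-0.76 ± 0.09, adjusted p = 8.92e-05). Both calls held under all alternatives. Myh6, alpha-myosin heavy chain, the main motor of the adult mouse ventricle, had 9867, 9599 and 10298 in SRFHKO +PE and 14151, 13024 and 14679 in control hearts. That fall of 0.49 ± 0.10 (adjusted p = 0.00365) ended under quantile normalization and with brightness as a covariate, where the smallest difference was -0.09. The other falls were Tnni3, Tpm1, Myom1, Myl2, Ldb3, Ttn and Tcap. Synpo2l, a Z-disc actin-binding protein, rose, with 3241, 4940 and 4188 in SRFHKO +PE and 1286, 1466 and 1552 in control hearts (1.5 ± 0.18, adjusted p = 9.15e-05), as did Nrap and Myh7. Under quantile normalization the split turned to 6 higher and 2 lower, with a median of 0.15. The falls numbered 4 without control replicate 3 or SRFHKO +PE replicate 2, and 2 with brightness as a covariate. This list holds many of the brightest genes: in the brightest 10% of all genes tested 239 of 1262 fell and 101 rose, at a median of -0.06.

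Calcium handling genes showed 4 falls and 2 rises among 23 (17.4% and 8.70%, against 4.98% and 4.69% of all genes), with a median of -0.09. Atp2a2, the calcium pump of the sarcoplasmic reticulum, had 8756, 7724 and 8250 in SRFHKO +PE and 12211, 10634 and 11461 in control hearts (-0.47 ± 0.10, adjusted p = 0.00670). This call ended under quantile normalization. Hrc, a calcium-binding protein of that store, fell by 0.64 ± 0.12 (adjusted p = 0.00364) and Jph2, which holds the store against the cell membrane, by 0.61 ± 0.14 (0.00813). Cacnb2, a subunit of the L-type calcium channel, had 441, 386 and 471 in SRFHKO +PE and 316, 246 and 281 in control hearts (0.62 ± 0.14, adjusted p = 0.0104). Camk2a was the other fall and Camk2d, the main cardiac isoform of that kinase, the other rise. Pln, phospholamban, the inhibitor of the pump, differed by -0.12 ± 0.09 (adjusted p = 0.409), and under quantile normalization by 0.26 with a call.

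Of 19 measured potassium and sodium channel genes 2 fell (10.5%) and 1 rose (5.26%), where 4.98% of all genes fell and 4.69% rose. Kcnip2, the subunit that makes the fast transient outward potassium current, had 113, 201 and 187 in SRFHKO +PE and 622, 362 and 517 in control hearts, a 2.99-fold fall without overlap (-1.58 ± 0.25, adjusted p = 0.000821). Kcnv2, a silent channel subunit, fell with overlap (-1.26 ± 0.35, adjusted p = 0.0292), and Kcnj11, a pore subunit of the ATP-sensitive channel, rose by 0.56 ± 0.17 (0.0438). Both calls were lost without control replicate 1 or 2 or SRFHKO +PE replicate 1 or 2, and that of Kcnj11 also without SRFHKO +PE replicate 3. Kcnd3, a pore subunit of the transient outward current, differed by 0.39 ± 0.15 (adjusted p = 0.106), and by -0.69 as the mean of its probe sets.

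Junction and costamere genes had a median of 0.23, with 4 of 22 higher (18.2%) and melusin alone lower, and the rises numbered 2 without control replicate 3 or SRFHKO +PE replicate 2. Gja1, connexin 43, the main gap junction protein of the ventricle, had 4409, 4569 and 4233 in SRFHKO +PE and 3056, 2626 and 1976 in control hearts (0.81 ± 0.15, adjusted p = 0.00289). A brighter probe set, of the class whose probes may match several transcripts, differed by 0.19 ± 0.11 (adjusted p = 0.322). Cdh2, N-cadherin, which joins heart muscle cells end to end, had 2486, 2448 and 2483 in SRFHKO +PE and 1773, 2032 and 1667 in control hearts (0.44 ± 0.09, adjusted p = 0.00601). Xirp1, described above, and the connexin gene Gjc1 were the other rises.

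Energy metabolism held the most uniform lists. The oxidative phosphorylation list had 66 measured members, of which 55 fell (83.3%), 1 rose (Cox8a) and 64 lay below 0, at a median of -0.45. Of 26 genes of the tricarboxylic acid cycle and pyruvate oxidation 17 fell (65.4%), 0 rose and all 26 lay below 0, at a median of -0.44. Of 31 genes of fatty acid uptake and oxidation 23 fell (74.2%) and 0 rose, 30 lay below 0, and the median was -0.48. Sdha and Sdhb count in the first 2 lists. Over all genes 4.98% fell. These lists are bright, and under quantile normalization the falls numbered 17, 11 and 16, with 0 rises and medians of -0.17, -0.31 and -0.46. With brightness as a covariate they numbered 6, 5 and 3, at medians of -0.30, -0.37 and -0.50. The falls of fatty acid genes numbered 15 without control replicate 3 and 14 without SRFHKO +PE replicate 2.

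**Figure D2:**
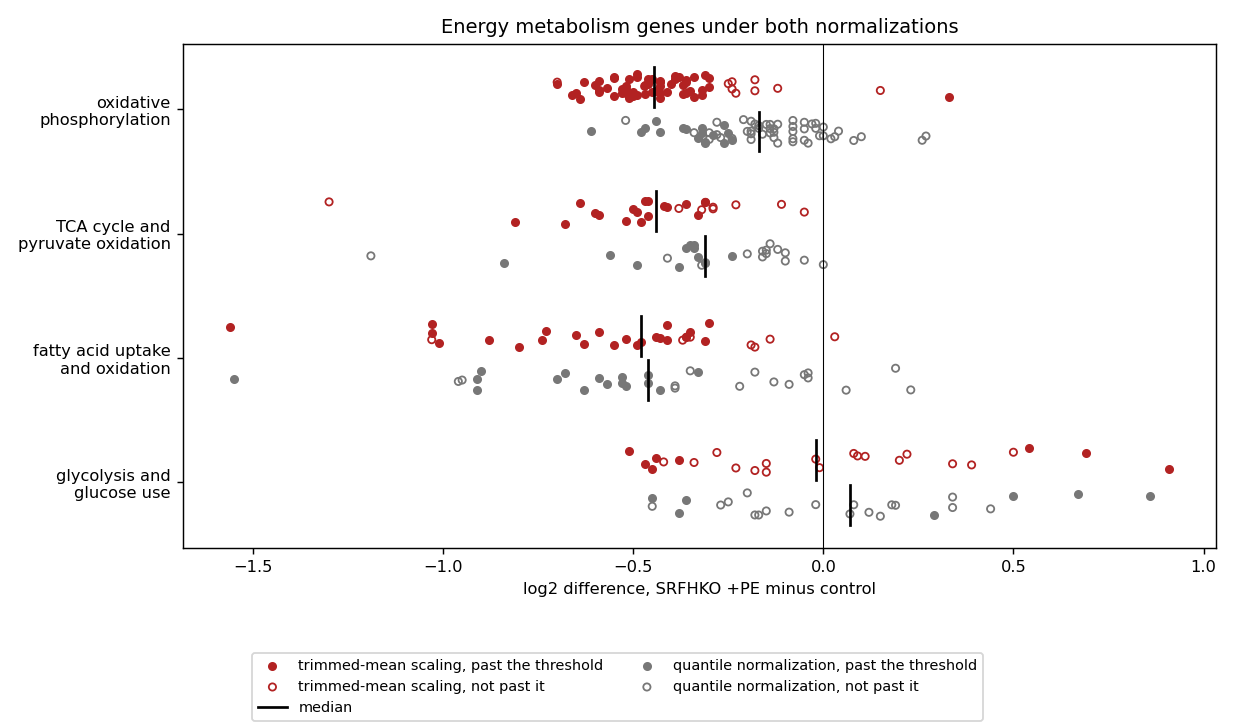
Log2 difference of each member of 4 energy metabolism lists, SRFHKO +PE minus control, after trimmed-mean scaling (red, upper row of each pair) and after quantile normalization (grey, lower row). Filled points passed the threshold, open points did not, black bars are medians, and the vertical scatter has no meaning. The oxidative phosphorylation median moves from -0.45 under trimmed-mean scaling to -0.17 under quantile normalization, and that of fatty acid genes from -0.48 to -0.46.

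Single members lay in tight ranges. Uqcrc1, a core subunit of complex III, had 3026, 3157 and 3217 in SRFHKO +PE and 5100, 4696 and 5000 in control hearts (-0.65 ± 0.09, adjusted p = 0.000215). Ndufa6, of complex I, had 2173, 2361 and 2532 in SRFHKO +PE and 3607, 3390 and 3610 in control hearts (-0.59 ± 0.08, adjusted p = 0.000229). Ndufa9 and Ndufv1, also of complex I, fell by 0.53 ± 0.07 and 0.55 ± 0.08, and all 4 kept their calls under all alternatives. In the cycle itself, citrate synthase (Cs) had 4482, 4454 and 4723 in SRFHKO +PE and 6627, 6920 and 7224 in control hearts (-0.60 ± 0.09, adjusted p = 0.000312). Suclg1, of succinyl-CoA ligase, fell by 0.68 ± 0.09 and Pdk2, a kinase that restrains pyruvate dehydrogenase, by 0.81 ± 0.11, again with calls that held throughout. Got2, the mitochondrial aspartate aminotransferase, fell by 0.64 ± 0.10, a call lost with brightness as a covariate. For Ndufa9, Cs and Got2 the 3 control arrays were above all other arrays of the series.

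In fatty acid oxidation, Acadvl, the dehydrogenase that opens the oxidation of long chains, had 2551, 2651 and 2981 in SRFHKO +PE and 4631, 4242 and 4805 in control hearts (-0.74 ± 0.09, adjusted p = 7.61e-05). Decr1, a reductase for unsaturated chains, had 1375, 1527 and 1642 in SRFHKO +PE and 2160, 2556 and 2843 in control hearts (-0.73 ± 0.11, adjusted p = 0.000413). Eci1, an isomerase for unsaturated chains, had 1951, 1424 and 2008 in SRFHKO +PE and 3485, 3214 and 4056 in control hearts, a 2.01-fold fall (-1.01 ± 0.15, adjusted p = 0.000479). Etfb, which passes electrons from these dehydrogenases to the respiratory chain, fell by 0.63 ± 0.10 (adjusted p = 0.000855). The groups did not overlap in any of the 4, and the Acadvl control arrays lay above all others of the series. With brightness as a covariate the calls of Eci1 and Etfb were lost.

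Regulators of these genes fell in part. Of 18 genes of the PPAR, PGC-1 and ERR families 5 fell (27.8%) and 1, Esrrg, rose, with a median of -0.41 that quantile normalization left at -0.42. Ppargc1b, which encodes the coactivator PGC-1 beta, had 290, 153 and 263 in SRFHKO +PE and 583, 507 and 683 in control hearts (-1.36 ± 0.19, adjusted p = 0.000229). Ppara, the nuclear receptor that drives fatty acid oxidation genes, had 142, 109 and 153 in SRFHKO +PE and 397, 250 and 299 in control hearts (-1.20 ± 0.22, adjusted p = 0.00238). Ppargc1a, PGC-1 alpha, had 1178, 592 and 884 in SRFHKO +PE and 1493, 1286 and 1635 in control hearts (-0.78 ± 0.18, adjusted p = 0.00954). Its call was lost without control replicate 3 or SRFHKO +PE replicate 2, and its other 2 probe sets differed by -0.51 ± 0.20 and -0.54 ± 0.21 without passing. Rxrg, a partner receptor of PPAR alpha, fell by 0.71 ± 0.15 (adjusted p = 0.00510), and Rxra was the fifth fall. Without SRFHKO +PE replicate 2 the falls numbered 3.

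Glycolysis genes split, with 3 of 25 higher (12%), 5 lower (20%) and a median of -0.02. Pgam1, phosphoglycerate mutase, had 529, 680 and 592 in SRFHKO +PE and 358, 270 and 328 in control hearts (0.91 ± 0.13, adjusted p = 0.000397). Slc2a1, the glucose transporter of fetal heart, had 190, 226 and 217 in SRFHKO +PE and 124, 132 and 133 in control hearts (0.69 ± 0.15, adjusted p = 0.00651), the control arrays lying below all others of the series. Pfkp was the last rise. Pfkm, muscle phosphofructokinase, fell by 0.51 ± 0.09 (adjusted p = 0.00166) and Eno3, muscle enolase, by 0.47 ± 0.10 (0.00673), beside Slc2a4, Ldhb and Pygm, and the falls numbered 2 without SRFHKO +PE replicate 1 and 3 without control replicate 1 or 3 or SRFHKO +PE replicate 2. Energy transfer genes were lower in 5 of 13 (38.5%) and higher in 1 (Ak4), the falls led by Ckm, with Slc25a4, the adenine nucleotide carrier, at -0.45 ± 0.08, Slc25a3, the phosphate carrier, at -0.47 ± 0.10 and Ckmt2, mitochondrial creatine kinase, at -0.37 ± 0.09. These 3 calls ended under quantile normalization, as did that of Eno3, and that of Ckmt2 also without control replicate 2 or SRFHKO +PE replicate 1. Of 19 genes of NAD synthesis and use 1, Nmrk2, rose (5.26%, near the 4.69% of all genes). The falls numbered 3 (15.8%, against 4.98% of all genes). In that list Sirt3, the mitochondrial deacetylase (-0.67 ± 0.16, adjusted p = 0.0103), Nnt, a proton-driven transhydrogenase (-0.62 ± 0.12, 0.00377), and Nadk2, mitochondrial NAD kinase (-0.48 ± 0.13, 0.0221), fell. Nampt, which makes NAD from nicotinamide, had 631, 680 and 785 in SRFHKO +PE and 764, 773 and 892 in control hearts (-0.21 ± 0.15, adjusted p = 0.413). The Sirt3 call was lost without SRFHKO +PE replicate 1 and that of Nadk2 without SRFHKO +PE replicate 1 or 2 or control replicate 2 or 3.

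**Figure D3:**
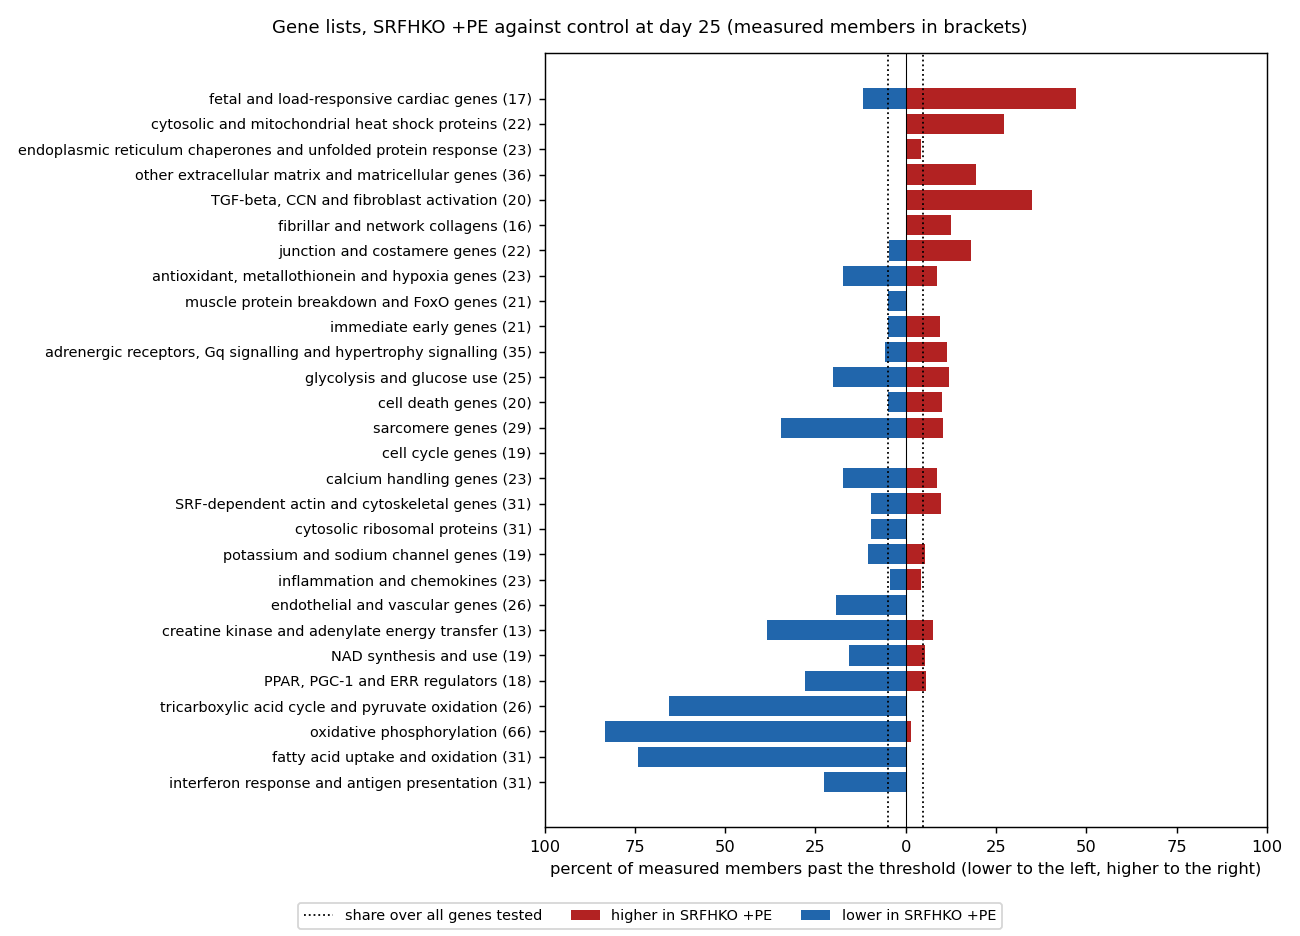
Percent of the measured members of each gene list (number in brackets) that were higher (red, right) or lower (blue, left) in SRFHKO +PE than in control hearts, ordered by median difference. The dotted lines mark the shares over all genes, 4.69% higher and 4.98% lower, and the 3 longest bars to the left are oxidative phosphorylation (83.3%), fatty acid oxidation (74.2%) and the tricarboxylic acid cycle (65.4%).

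Of 20 genes of the TGF-beta, CCN and fibroblast activation list 7 rose (35%) and 0 fell, at a median of 0.29, and 7 lay below 0. With brightness as a covariate 1 rose, at a median of 0.11, and without SRFHKO +PE replicate 2 the rises numbered 4. Tgfb2, a TGF-beta ligand, had 250, 374 and 262 in SRFHKO +PE and 83.6, 134 and 63.0 in control hearts (1.68 ± 0.26, adjusted p = 0.000617). Bambi, a decoy receptor that dampens TGF-beta signalling, had 333, 466 and 439 in SRFHKO +PE and 185, 185 and 145 in control hearts (1.25 ± 0.16, adjusted p = 0.000134), a call that held under all alternatives. Ccn2, connective tissue growth factor, had 2968, 5434 and 3619 in SRFHKO +PE and 1352, 2182 and 2118 in control hearts (1.07 ± 0.31, adjusted p = 0.0353). The groups lay apart, though the call was lost without control replicate 1 or 3 or SRFHKO +PE replicate 2 or 3. Ccn5, a CCN protein that opposes Ccn2, rose by 1.74 ± 0.37 (adjusted p = 0.00564) and the ligand gene Tgfb3 by 0.84 ± 0.16 (0.00255). Ccn1 and the receptor gene Tgfbr1 completed the 7.

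Of 16 collagen genes 2 rose (12.5%), and of 36 other matrix genes 7 rose (19.4%), against 4.69% of all genes. These lists held 0 falls, at medians of 0.24 and 0.31. Of those 36 genes 9 lay below 0, and 0 passed by limma with brightness as a covariate and 2 without control replicate 3, SRFHKO +PE replicate 1 or SRFHKO +PE replicate 2. Col8a1, a short-chain network collagen, had 965, 727 and 472 in SRFHKO +PE and 187, 173 and 97.9 in control hearts, a 4.66-fold rise (2.22 ± 0.25, adjusted p = 3.68e-05) that held under all alternatives. Col1a1 and Col1a2, the chains of fibrillar collagen I, had differences of 0.98 ± 0.54 (adjusted p = 0.274) and 0.67 ± 0.32 (0.206) with overlapping hearts. Postn, periostin, made by activated fibroblasts, had 2241, 2020 and 987 in SRFHKO +PE and 579, 494 and 431 in control hearts (1.72 ± 0.34, adjusted p = 0.00385). Cilp, a matrix protein that binds TGF-beta, had 756, 494 and 236 in SRFHKO +PE and 139, 171 and 123 in control hearts (1.62 ± 0.37, adjusted p = 0.00925), a call lost without SRFHKO +PE replicate 1. Col5a2 (1.20 ± 0.36), Aspn, asporin (0.91 ± 0.22), and Thbs4, thrombospondin 4 (0.82 ± 0.21), also rose, as did Mfap5, Lamb1 and Bgn. Those 3 with values lost their calls without SRFHKO +PE replicate 1 or 2 or control replicate 3, and Col5a2 also without control replicate 2. SRFHKO +PE replicate 3 had the lowest signal of its group for Postn, Cilp and Col8a1. The fibroblast markers given above include Postn, Col1a1 and Col1a2, so their sum is not independent of these genes, and the sums overlapped. For the other markers, mean scaled signals in SRFHKO +PE and control hearts were 2380 and 1630 for Col3a1 and 3210 and 3060 for Dcn. They were 1090 and 919 for Lum, 368 and 326 for Pdgfra and 177 and 183 for Tcf21. The part of fibroblast content was not tested.

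Heat shock protein genes had a median of 0.44, with 6 of 22 higher (27.3%, against 4.69% of all genes) and 0 lower. The rises numbered 12 without SRFHKO +PE replicate 1, 9 under quantile normalization and 2 with brightness as a covariate. Hsp90aa1, the stress-inducible heat shock protein 90, had 1959, 4235 and 2795 in SRFHKO +PE and 816, 750 and 597 in control hearts (1.99 ± 0.21, adjusted p = 2.67e-05). Hsph1, a partner of heat shock protein 70 whose promoter is printed above, had 477, 2362 and 1362 in SRFHKO +PE and 340, 236 and 185 in control hearts (2.22 ± 0.43, adjusted p = 0.00342). Hspa4, of the same family, rose by 0.71 ± 0.11 (adjusted p = 0.000695). In Hspa1b, Hsph1 and Hsp90aa1 alike SRFHKO +PE replicate 1 was the lowest and replicate 2 the highest of their group. Hspa1a, a near-identical copy of Hspa1b, was called too, with overlapping hearts, and reads of the pair on this array are uncertain as to which gene they come from. Dnajb4 was the last rise. For Hsp90aa1 and Hspa4 the control arrays lay below all others of the series. Of 23 endoplasmic reticulum chaperone and unfolded protein response genes 1 rose (4.35%, near the 4.69% of all genes), at a list median of 0.34. It was Atf6, a sensor of that response (0.41 ± 0.11, adjusted p = 0.0240), whose call was lost without control replicate 1 or 3 or SRFHKO +PE replicate 1 or 3. Herpud1, Canx and Ddit3 of that list differed by -0.66 ± 0.23, 0.39 ± 0.14 and 0.45 ± 0.18 without passing, and Ddit3 by -0.14 as the mean of its probe sets.

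Among antioxidant and hypoxia genes 2 of 23 rose (8.7%) and 4 fell (17.4%), where 4.69% of all genes rose and 4.98% fell. The falls in this list numbered 2 without control replicate 3 or SRFHKO +PE replicate 1. Gpx3, the secreted glutathione peroxidase, had 4074, 3473 and 3056 in SRFHKO +PE and 1236, 916 and 1253 in control hearts (1.64 ± 0.18, adjusted p = 3.68e-05). Hif1a, the hypoxia-inducible transcription factor, had 1453, 1004 and 885 in SRFHKO +PE and 472, 469 and 447 in control hearts (1.23 ± 0.16, adjusted p = 0.000168), while the mean of its probe sets did not pass. For each of these 2 genes the control arrays lay below all others of the series. Txnip, which binds thioredoxin and restrains glucose uptake, had 985, 1077 and 1052 in SRFHKO +PE and 2279, 4350 and 3180 in control hearts (-1.61 ± 0.33, adjusted p = 0.00464). Sod2, the mitochondrial superoxide dismutase, fell by 0.65 ± 0.11 (adjusted p = 0.001), beside Mt1 and Prdx3.

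Interferon-response genes had the lowest list median, -0.78 over 31 measured members, with 7 lower (22.6%), 0 higher and 30 below 0. Igtp, an interferon-induced GTPase that acts against intracellular pathogens, had 389, 264 and 296 in SRFHKO +PE and 1566, 1982 and 1246 in control hearts, a 5.01-fold fall (-2.32 ± 0.39, adjusted p = 0.00126). Its relatives Irgm2, with 213, 184 and 210 in SRFHKO +PE and 1009, 1463 and 619 in control hearts (-2.25 ± 0.48, adjusted p = 0.00607), and Iigp1 (-1.84 ± 0.46, 0.0163) fell too. Irf1, a transcription factor of this response, fell by 0.66 ± 0.16 (adjusted p = 0.0115). Irgm1, Psmb8 and Psmb9 were the other falls. The falls numbered 17 in a fit of the 6 arrays alone, 4 without control replicate 1 or SRFHKO +PE replicate 2 or 3, and 0 with brightness as a covariate, where the median was -0.34, and the Iigp1 call was lost without SRFHKO +PE replicate 2. The macrophage marker sums were 3348 to 3729 in SRFHKO +PE and 3577 to 4277 in control hearts, and their part in the interferon values was not tested.

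Inflammation and chemokine genes showed 1 rise and 1 fall among 23 (4.35% each), near the shares over all genes (4.69% higher and 4.98% lower). Tlr4, the endotoxin receptor, had 138, 341 and 305 in SRFHKO +PE and 88.1, 123 and 106 in control hearts (1.20 ± 0.27, adjusted p = 0.00902), a call lost without SRFHKO +PE replicate 2. Ccl9, a monocyte chemokine, had 107, 98.5 and 118 in SRFHKO +PE and 195, 246 and 216 in control hearts (-1.01 ± 0.23, adjusted p = 0.00983), and the chemokines Ccl6 and Ccl8 had differences of -0.92 ± 0.32 (0.0760) and -1.01 ± 0.35 (0.0796). Of 26 endothelial and vascular genes 5 fell (19.2%) and 0 rose, at a median of -0.25. The falls numbered 2 without control replicate 3 or SRFHKO +PE replicate 2. Vwf, von Willebrand factor, fell by 0.83 ± 0.18 (adjusted p = 0.00621), Vegfb, a vascular growth factor made by heart muscle, by 0.73 ± 0.15 (0.00440), Gpihbp1, which carries lipoprotein lipase across capillaries, by 0.67 ± 0.17 (0.0163) and Aqp1, a water channel, by 0.65 ± 0.19 (0.0335). The Gpihbp1 and Aqp1 calls were lost without control replicate 3 or SRFHKO +PE replicate 2, and that of Aqp1 also without SRFHKO +PE replicate 1. The 8 endothelial markers held 0 calls (9.67% of all genes were called), with sums of 1918 to 2448 in SRFHKO +PE and 2104 to 2746 in control hearts.

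Signalling genes of the adrenergic and Gq list were lower in 2 (5.71%) and higher in 4 (11.4%) of 35, with a median of 0.00. By comparison, 4.98% of all genes fell and 4.69% rose. The rises in this list numbered 2 without control replicate 3. Grk5, a kinase that desensitises adrenergic receptors and can act in the nucleus under Gq signalling, had 636, 655 and 693 in SRFHKO +PE and 234, 152 and 135 in control hearts, a 3.88-fold rise (1.96 ± 0.20, adjusted p = 2.67e-05). This call held under all alternatives, as did that of Rcan1. Ace, angiotensin-converting enzyme, had 114, 104 and 131 in SRFHKO +PE and 61.9, 64.2 and 55.5 in control hearts (0.91 ± 0.23, adjusted p = 0.0183), and Mef2c, a muscle transcription factor, rose by 0.45 ± 0.11 (0.0168). The Ace call was lost without control replicate 3 or SRFHKO +PE replicate 3, and that of Mef2c without control replicate 1 or 3 or SRFHKO +PE replicate 1 or 2. Mapk14 and Mef2d fell.

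Cell death genes showed 2 rises (10%) and 1 fall (5%) among 20, at a median of -0.08, where 4.69% of all genes rose and 4.98% fell. Bcl2, which blocks apoptosis, had 237, 196 and 179 in SRFHKO +PE and 108, 80.7 and 93.4 in control hearts (1.10 ± 0.17, adjusted p = 0.000617). Bcl2l11, which encodes the pro-apoptotic protein BIM, had 214, 128 and 245 in SRFHKO +PE and 428, 395 and 417 in control hearts (-1.12 ± 0.19, adjusted p = 0.00156). Tnfrsf12a, the receptor for TWEAK, rose with overlapping hearts (1.12 ± 0.32, adjusted p = 0.0316), a call lost without control replicate 1 or 2 or SRFHKO +PE replicate 2 or 3, and Fas differed by -0.91 ± 0.30 (0.0671). Of 21 immediate early genes 2 rose (9.52%) and 1 fell (4.76%). The stress factor gene Atf3 had 68.9, 1374 and 261 in SRFHKO +PE and 31.6, 48.1 and 80.9 in control hearts (2.51 ± 0.75, adjusted p = 0.0421). Egr3 was at least 3.43-fold higher (0.0464), and Zfp36, which destabilises cytokine messages, fell by 0.73 ± 0.21 (0.0317). The calls of Atf3 and Egr3 were lost without any 1 control heart or without SRFHKO +PE replicate 2 or 3, and that of Zfp36 without control replicate 2 or 3 or SRFHKO +PE replicate 1 or 2. Nr4a1 differed by 1.01 ± 0.38 (adjusted p = 0.105).

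Other lists held few calls. The 19 cell cycle genes held 0 calls by limma and 2 at an unadjusted p under 0.05, and the smallest adjusted p was 0.168 for Ccnd1, cyclin D1 (0.67 ± 0.29). Among 21 genes of muscle protein breakdown 1 fell (4.76%, near the 4.98% of all genes). It was Foxo1 (-0.59 ± 0.14, adjusted p = 0.00959), a transcription factor of that programme, a call lost without control replicate 3 or SRFHKO +PE replicate 1. Of 31 cytosolic ribosomal protein genes 3 fell (9.68%, against 4.98% of all genes), Rplp2 (-0.35 ± 0.09), Rps9 (-0.32 ± 0.09) and Rps2 (-0.31 ± 0.09). These 3 calls ended under quantile normalization, which gave a list median of 0.03 where trimmed-mean scaling gave -0.14, and without SRFHKO +PE replicate 2. The call of Rplp2 was also lost without control replicate 3, that of Rps9 without control replicate 1 or SRFHKO +PE replicate 3, and that of Rps2 without control replicate 1 or 3 or SRFHKO +PE replicate 1. Outside the lists, Hacd1, a dehydratase for very long fatty acids, had 612, 582 and 555 in SRFHKO +PE and 1334, 974 and 1028 in control hearts (-0.92 ± 0.15, adjusted p = 0.000746).

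The single insults, measured against the same 3 control hearts, differed in size. Deletion alone changed 159 genes upwards (1.26%) and 136 downwards (1.08%), and PE alone 4 upwards (0.0317%) and 0 downwards (0%) by limma, with 770 downwards at an unadjusted p under 0.05. Under both insults 93 genes were higher (0.737%) and 113 lower (0.896%) than under PE alone, and 23 were higher (0.182%) and 14 lower (0.111%) than under deletion alone. These comparisons share control or SRFHKO +PE hearts, so their counts are not independent of each other.

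For the 6 genes given next, picked from the named genes, all hearts of both groups with the deletion lay apart from all hearts of both groups without it. How many of all genes lay apart in this way is not given here. Between SRFHKO +PE and control hearts alone, 28% of all genes did not overlap. Itgb1bp2 had 435, 438 and 365 in SRFHKO +PE, 660, 396 and 522 in SRFHKO, 1657, 1806 and 1527 in control +PE and 1496, 1828 and 1662 in control hearts. Its level under both insults differed by -0.32 ± 0.21 from deletion alone (adjusted p = 0.617) and by -2.01 from PE alone (0.000132). Ckm had differences of 0.08 from deletion alone (adjusted p = 0.945) and -1.99 from PE alone (0.000194), Kcnip2 of 0.29 (0.751) and -1.93 (0.000729), and Hacd1 of 0.03 (0.975) and -1.27 (0.000194). Nmrk2 differed by 0.54 ± 0.36 from deletion alone (adjusted p = 0.638) and by 2.92 from PE alone (0.000401), and PE alone gave 244, 223 and 188, against 60.9, 41.8 and 66.1 in control hearts. Acta1 had 759, 549 and 360 in SRFHKO +PE, 475, 311 and 584 in SRFHKO, 2112, 2820 and 2900 in control +PE and 1276, 895 and 1497 in control hearts. Its difference was 0.27 ± 0.36 from deletion alone (adjusted p = 0.861) and -2.28 from PE alone (0.00255).

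Postn had 2241, 2020 and 987 in SRFHKO +PE, 469, 371 and 567 in SRFHKO, 1464, 1173 and 1374 in control +PE and 579, 494 and 431 in control hearts. It differed by 1.83 ± 0.34 from deletion alone (adjusted p = 0.0246) and by 0.31 from PE alone (0.754). Thbs4 differed by 1.19 ± 0.21 from deletion alone (adjusted p = 0.0219) and by -0.33 from PE alone (0.516), while Tgfb2 lay 1.38 ± 0.26 above deletion alone (0.0254) and 0.88 ± 0.26 above PE alone (0.101). Tgfb3 lay 0.84 ± 0.16 above deletion alone (adjusted p = 0.0254) and 0.49 ± 0.16 above PE alone (0.123). Cilp, Aspn, Col5a2, Col1a1 and Col1a2 did not pass against deletion alone. Nppb differed by 1.08 ± 0.28 from deletion alone (adjusted p = 0.113) and by 0.25 from PE alone (0.765). The medians of the other matrix genes were 0.31 in SRFHKO +PE, -0.25 in SRFHKO and 0.15 in control +PE, each against control. For the interferon list they were -0.78, -0.88 and -0.03, for oxidative phosphorylation -0.45, -0.26 and -0.13, for fatty acid oxidation -0.48, -0.18 and -0.22, and for heat shock genes 0.44, 0.19 and 0.26. A level that did not differ from a single insult beyond the threshold is not thereby shown to equal it.

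**Figure D4:**
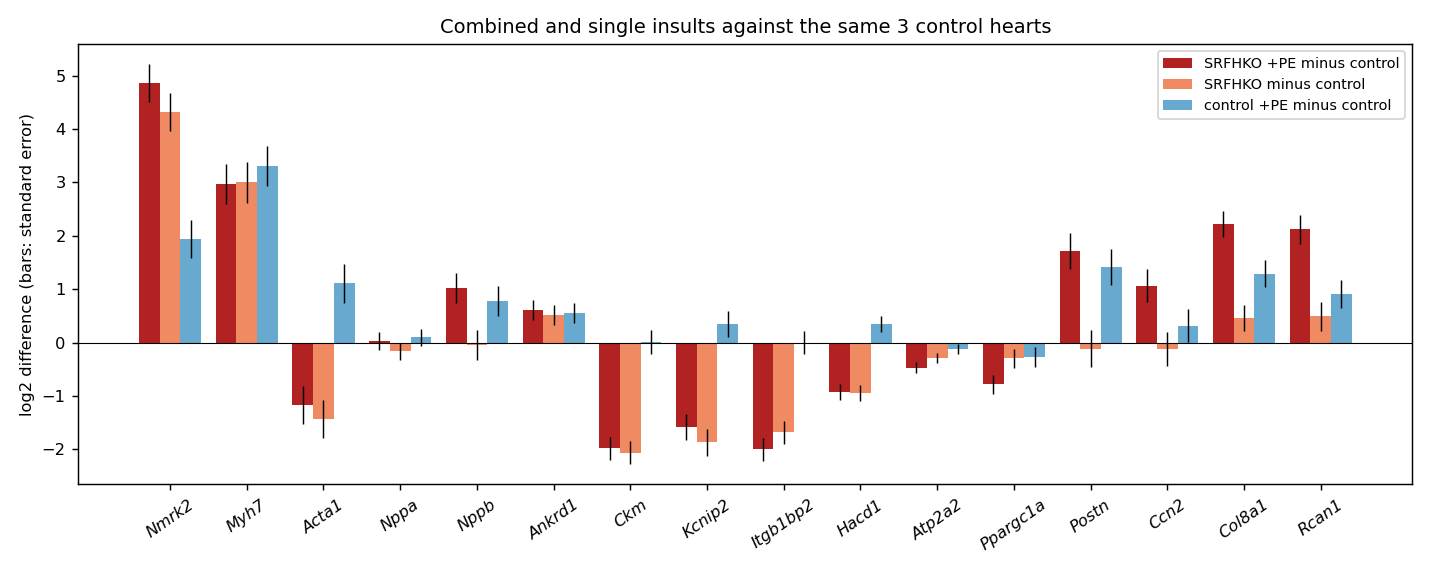
Log2 differences from the same 3 control hearts for SRFHKO +PE (red), SRFHKO (orange) and control +PE hearts (light blue), for 16 named genes, with standard errors as bars. Ckm lies near -2 with the deletion, at -1.98 with PE and -2.06 without it, against 0.01 with PE alone, while Col8a1 lies at 2.22, 0.46 and 1.29.

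A gene beyond both single insults had to differ from deletion alone and from PE alone in 1 direction, with the larger of the 2 p values adjusted over all genes. This held for 2 of 12616 genes, both higher (0.0159%), and for 0 lower (0%), against 577 genes at an unadjusted p under 0.05, 297 of them lower. Sprr1a had 425, 474 and 152 in SRFHKO +PE, 20.5, 20.7 and 32.8 in SRFHKO, 33.9, 28.8 and 42.5 in control +PE and 26.2, 25.0 and 45.6 in control hearts. Among the 4 groups of day 25 it was high in the SRFHKO +PE hearts alone, by 3.59 ± 0.36 against deletion alone and 3.10 against PE alone (adjusted p for both together = 0.000868), and this held under every alternative run.

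Rtn4, which encodes the Nogo proteins of the endoplasmic reticulum, had 2829, 3201 and 2412 in SRFHKO +PE, 1459, 1777 and 1672 in SRFHKO, 1630, 1557 and 1615 in control +PE and 1192, 1099 and 1131 in control hearts. It lay 0.78 ± 0.12 above deletion alone and 0.80 above PE alone (adjusted p for both together = 0.0221), and 1.29 ± 0.12 above control (adjusted p = 1.21e-05). Its other 2 probe sets differed from control by 0.05 ± 0.23 and 0.23 ± 0.21, so the rise came from the brightest alone. The call of Rtn4 beyond both was lost under 10 alternatives, among them the removal of any 1 control +PE heart, SRFHKO replicate 1 or 3, or SRFHKO +PE replicate 1 or 2. Nearest to the threshold among lower genes were Gstk1, a mitochondrial and peroxisomal glutathione transferase (adjusted p = 0.0507), Rmdn1 (0.131) and Eci1 (0.156). Gstk1 had 524, 524 and 668 in SRFHKO +PE, 871, 814 and 829 in SRFHKO, 908, 905 and 931 in control +PE and 1082, 1133 and 1120 in control hearts.

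**Figure D5:**
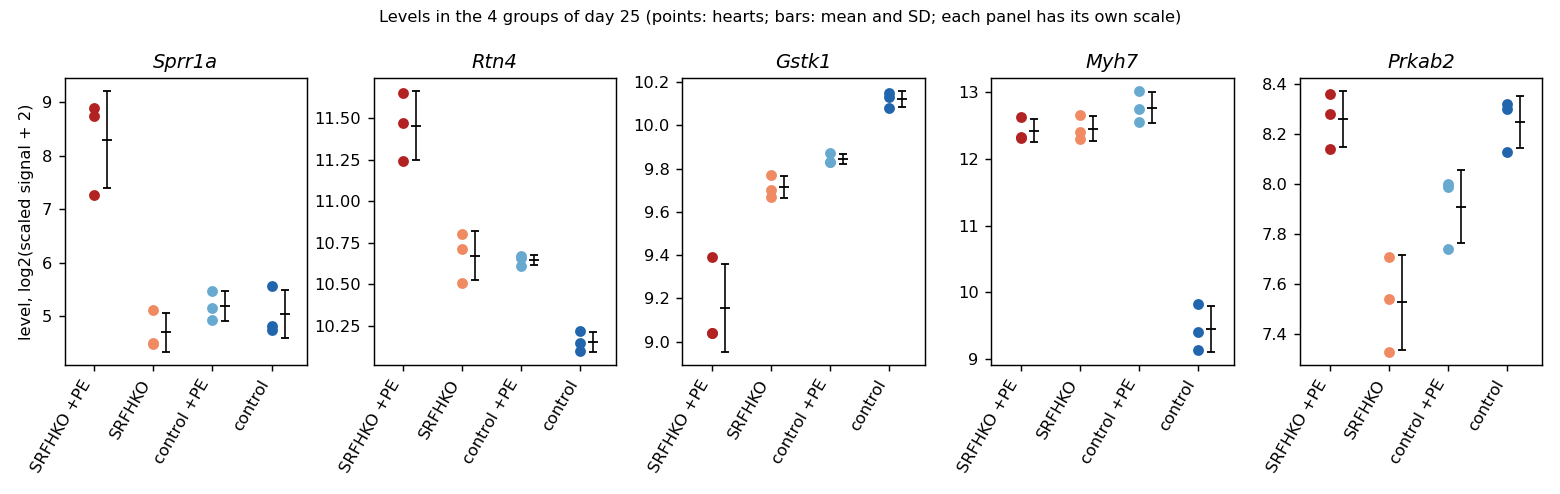
Levels of 5 genes in each heart of the 4 groups of day 25, as log2(scaled signal + 2), each panel with its own scale. Points are hearts and the bars beside them the mean and SD (n = 3). Sprr1a is high in the 3 SRFHKO +PE hearts (152 to 474) and at 20.5 to 45.6 in the other 9, and Myh7 is low in the 3 control hearts alone.

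The total change was also set against the sum of the single changes on the log2 scale. It was departed from by 3 genes (0.0238%), with 947 at an unadjusted p under 0.05. Sprr1a exceeded the sum by 3.45 ± 0.51 (adjusted p = 0.0271). Myh7 fell short of it by 3.34 ± 0.54 (0.0278): deletion alone gave 3.00, PE alone 3.31 and both 2.97, all against the low control group described above. The sum of its single changes, 6.31, added to its control mean of 9.45 lies above 13.51, the highest mean level of the genes tested. The test could therefore not have found Myh7 additive, and no conclusion is drawn from its shortfall. Prkab2, a regulatory subunit of AMP-activated protein kinase, had 309, 326 and 280 in SRFHKO +PE, 207, 159 and 185 in SRFHKO, 254, 252 and 212 in control +PE and 279, 317 and 313 in control hearts. Deletion alone gave -0.72 (adjusted p = 0.00518), PE alone -0.34 (0.315) and both 0.01 ± 0.12 (0.972), a departure of 1.07 ± 0.17 (0.0278). All 3 departures were lost without control replicate 2, any 1 control +PE heart, SRFHKO replicate 2 or SRFHKO +PE replicate 2. That of Sprr1a was also lost without SRFHKO replicate 1, that of Myh7 without control replicate 1, SRFHKO replicate 1 or 3 or SRFHKO +PE replicate 3, and that of Prkab2 without control replicate 3, SRFHKO replicate 3 or SRFHKO +PE replicate 3. Gpr22 and Itga9, next in order, had departures of -2.14 ± 0.42 (0.237) and 1.23 ± 0.25 (0.239).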

How the data were processed

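RNA of 18 mouse hearts was measured on Affymetrix arrays of 45101 probe sets, 64 of them controls. The deposited values are linear signal intensities made with GCOS, the scanner software, per the submitters' processing notes; the sources used here do not give its version, signal algorithm or scaling target, and detection calls were not used. Probe sets were named through the platform annotation: 34945 carried 1 symbol, 932 several and 9160 none.

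Each array was scaled to a 2% trimmed mean of 90.6, and values were taken as log2(scaled signal + 2), which understates changes of dim genes. Probe sets with a mean below the 40th percentile (log2 3.58, scaled signal 9.94) were left out, and each gene was read from its brightest probe set, an _x_at probe set only where there was no other, which left 12616 genes. Dimmer groups with arrays below that limit have bounds ("at least"). limma 3.58.1 in R 4.3.3 was fitted to all 18 arrays with 1 mean for each of 6 groups (lmFit, eBayes with an intensity trend), with Benjamini-Hochberg adjustment over all genes and a threshold of 0.05. "Beyond both" took the larger p of the differences from each single insult. An exact permutation test of 3 against 3 arrays cannot go below 0.1. Precision is limited by the number of arrays, and the median standard error was 0.2 (log2). Where separate animals are meant by "biological", p values measure the spread between animals.

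On simulated data with 200 of 12616 genes changed between SRFHKO +PE and control, 64.9% of genes changed by log2 1 and 88.3% of those changed by log2 2 were recovered, with 5 false among 159 calls. The simulated noise was normal and independent between genes, and the groups had no difference in brightness. The simulation therefore checks the fit and cannot give the share of false calls in the measured data.

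Named genes are the 15 largest rises and 15 largest falls past the threshold without overlap and with the brighter group above the median level, 22 core cardiac genes, up to 4 members of each of 28 lists with the smallest p, and up to 5 per direction of the other 2 results; list members named without values are named for completeness of a count. The members of the comparison and the lists were chosen with earlier results of these data known. Of 782 list genes 712 were on the array and 686 were tested. Cell type markers came from 14 further lists; the T cell, neutrophil, adipocyte, erythrocyte, lung, and Schwann cell and neuron lists had 1 to 3 measured members each. Replicate numbers were checked for pairing: correlations of the deviations of same-numbered arrays were -0.08 to 0.09, so the numbers were not taken as pairs. Promoter sequences are RefSeq's. The alternatives were quantile normalization, other pseudocounts (none, 16), filters (none, 60th percentile), the mean of a gene's probe sets, the 12 arrays of day 25, the 6 compared arrays, no intensity trend, the replicate block, brightness as a covariate, and each array left out.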

Additional observations from a re-analysis of the deposited data

Results flagged for a closer look

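Departures from the sum of the single changes past the limma threshold drew attention to 3 genes. A departure is a measured PE change that differed between SRFHKO and control hearts on the log2 scale. All 3 were lost without an intensity trend and, as given above, when certain single hearts were left out. Sprr1a lay 3.45 ± 0.51 above the sum on the log2 scale (adjusted p = 0.0271), with 152 to 474 in SRFHKO +PE hearts and 20.5 to 45.6 in the other 9 hearts of day 25. Prkab2 lay 1.07 ± 0.17 above it (adjusted p = 0.0278), with a difference from control of 0.01 ± 0.12 under both insults, -0.72 under deletion alone and -0.34 under PE alone. Myh7 had a departure of -3.34 ± 0.54 (adjusted p = 0.0278), and its 3 control hearts of day 25 lay below all other arrays of the series. Its additive level lay above the highest mean level of the genes tested, so the test could not have found it additive.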

How the results depend on the processing

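The 1220 genes past the threshold became 809 (349 higher, 460 lower, 733 shared) in a fit of the 6 arrays, 159 (91 higher, 68 lower, 148 shared) with brightness as a covariate and 576 to 1051 with 1 array left out. The 2 genes beyond both single insults became 1 with the mean of a gene's probe sets, without an intensity trend and with brightness as a covariate, and 1 to 5 with 1 array left out. The 3 departures from additivity became 1 with the mean of probe sets, 0 without a trend and 0 to 7 with 1 array left out. The replicate block, with numbers that do not pair the arrays, gave 1233, 3 and 2. Among named genes the sign turned for Hamp2 (1.54, no filter), Pln (0.26) and Rps2 (0.03) under quantile normalization and Rps9 (0.82, mean of probe sets). It also turned for genes that did not pass in either setting: Kcnd3 (-0.69) and Ddit3 (-0.14) with the mean of probe sets, Nampt (0.07) with brightness as a covariate, Srf (0.01) without control replicate 1, and Nppa, Prkab2 and Itga9, whose differences lay near 0. The list medians turned for sarcomere (0.15), calcium (0.01), ribosomal (0.03), cell cycle (0.05) and glycolysis genes (0.07) under quantile normalization. With brightness as a covariate they turned for sarcomere (0.01), glycolysis (0.01) and immediate early genes (-0.13), and the cell death median was 0. The medians of cell cycle, glycolysis and immediate early genes also turned with single arrays left out, and those of immediate early genes (-0.11, stricter filter) and of muscle protein breakdown genes (-0.01, mean of probe sets) with other settings. The cause was not tested. Of 118 named genes past the threshold 39 passed under all 17 alternatives. Brightness as a covariate lost 76, leaving out SRFHKO +PE replicate 2 lost 31, control replicate 3 22, the fit without a trend 20 and quantile normalization 16; of 26 not past it 11 passed in the same direction under at least 1 alternative, and Pln passed with its sign turned.

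The groups differ in brightness before scaling without overlap, so brightness and the groups cannot be told apart among the 6 arrays. With 3 hearts a group many calls near the threshold were lost when 1 heart was left out. Without detection calls, dim genes have only a filter limit as background.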
